A study of Rattus norvegicus with 16 samples.

Results

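The genes described here are 6 that mark Schwann cells and their myelin, namely Sox10, Mbp, Prx, Ncmap, Pmp22 and S100b, out of 14930 genes listed in any of the 4 groups of a single-cell RNA-sequencing study of the rat intervertebral disc (IVD). They were chosen by name, and their levels were read in all 16 libraries, in each class of cells the authors had named, in the cells without a class name, and in the subclusters of IVD cells. Male Sprague-Dawley rats, 8 weeks old at surgery, had a pair of lumbar discs stabbed with a needle (lumbar disc puncture, LDP), and an uninjured pair of discs of the same rat served as control (CON). Rats 1 to 4 were taken 2 weeks and rats 5 to 8 were taken 8 weeks after surgery, and the pooled discs of each kind made 1 library per rat, so each group had 4 libraries. The control discs lay at other lumbar levels and were not operated on, so the effects of the surgery and of the puncture cannot be told apart, and tissue around the discs had been dissected away.

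Schwann cells are the glia of peripheral nerves, and they wrap the larger axons in myelin. The transcription factor Sox10 is needed to form the lineage and to keep it, and it switches on myelin genes. Mbp encodes myelin basic protein, Pmp22 a membrane protein of compact myelin, Prx the scaffold protein periaxin, and Ncmap a membrane protein of noncompact myelin, while S100b is a calcium-binding protein that is also used as a marker of cartilage-type cells. A healthy disc carries few nerve fibres, mostly in its outer annulus fibrosus (OAF).

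Not all of the 6 genes could be followed in all groups. Each group listed only genes with a UMI (a unique molecular identifier, 1 captured RNA molecule) in about 0.1% of its cells, and a gene outside a list had no value there. Mbp, Prx, Pmp22 and S100b were listed in all 4 groups. Sox10 was not listed in CON at 8 weeks, and Ncmap was listed only in LDP at 8 weeks, so Ncmap had no control to be set against.

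The libraries held 149272 cells, 2221 to 15918 each, with a median of 3861 to 8092 UMIs per cell. One library stood apart for these genes. LDP rat 6, taken at 8 weeks, was the smallest with 2221 cells, and 628 of them had no class name. Several of the group and class levels that include this library are given with and without it. Of 146483 cell barcodes, 2762 occurred in more than 1 library, and 2 of the 153 cells with both Sox10 and Mbp carried such a barcode.

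Start-site windows of the genes are shown because Mbp has RefSeq entries for 2 separate starts and was measured in more than one kind of cell. The sequences are those of RefSeq, build GRCr8, and each covers 300 bases, most of them upstream of the start. Windows were found for 5 of the 6 genes, all but Sox10. Capitals mark the letters ACAAAG or ACAATG on either strand, short words that SOX factors can bind. Prx is shown beside the Mbp windows as a myelin gene with a single window.

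Mbp, upstream start, chr18:78130402-78130701, plus strand: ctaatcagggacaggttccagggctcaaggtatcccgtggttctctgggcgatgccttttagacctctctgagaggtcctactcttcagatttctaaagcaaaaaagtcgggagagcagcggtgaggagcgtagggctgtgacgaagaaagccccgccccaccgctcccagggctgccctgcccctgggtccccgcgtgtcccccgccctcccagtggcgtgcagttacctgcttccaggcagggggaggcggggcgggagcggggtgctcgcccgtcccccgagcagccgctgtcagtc

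Mbp, downstream start, chr18:78209995-78210294, plus strand: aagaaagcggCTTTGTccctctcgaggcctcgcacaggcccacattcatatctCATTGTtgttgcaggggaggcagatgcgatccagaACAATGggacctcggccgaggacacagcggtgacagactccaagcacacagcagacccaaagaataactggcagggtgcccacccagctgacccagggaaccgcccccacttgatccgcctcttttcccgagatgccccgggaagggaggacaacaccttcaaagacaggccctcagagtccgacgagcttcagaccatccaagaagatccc

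Prx, chr1:91914171-91914470, plus strand: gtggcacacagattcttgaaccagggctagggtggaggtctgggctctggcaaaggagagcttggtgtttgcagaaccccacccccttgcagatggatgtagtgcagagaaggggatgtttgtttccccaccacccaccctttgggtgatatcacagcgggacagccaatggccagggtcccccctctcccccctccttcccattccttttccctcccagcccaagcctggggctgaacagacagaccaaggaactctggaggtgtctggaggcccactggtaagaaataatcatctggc

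The downstream Mbp window held 3 of these words and the upstream window held 0. The windows of Prx, Ncmap, Pmp22 and S100b held 0 as well. Of all 33469 windows of this length, 29.1% held at least 1 such word, so a match or its absence is only a description of these letters. The 3′ reads do not tell the Mbp starts apart.

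Cells with UMIs of both Sox10 and Mbp were rare in every library but LDP rat 6. In CON at 2 weeks they numbered 10, 2, 6 and 11 in rats 1 to 4, of 3896 to 13470 cells. In LDP at 2 weeks they numbered 9, 26, 1 and 7. In LDP rats 5 to 8 they numbered 1, 77, 1 and 2. Rat 6 alone held 77 of the 81 such cells of its group.

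As shares of all cells, they made up 0.0657% ± 0.0207 (SD, n = 4) of CON cells and 0.0830% ± 0.0665 (SD, n = 4) of LDP cells at 2 weeks. The groups overlapped, and the share was higher in LDP than in CON in 2 of 4 rats. The difference was 0.0173 percentage points (exact permutation test, two-sided, 70 splits, p = 0.657, where the smallest possible p is 0.0286). In LDP rat 6 the share was 3.47% (95% Clopper-Pearson interval 2.75 to 4.31%, counting error only), and in the other 8-week LDP libraries it was 0.00987 to 0.0221%. Among cells with a class name alone it was 0.00643% in CON and 0.0735% in LDP at 2 weeks, higher in LDP in 4 of 4 rats (exact permutation test, p = 0.0857), which goes with the placement of these cells given below. The CON value rested on 3 cells, from rats 1 and 4. CON at 8 weeks could not be counted in this way because Sox10 was not listed. Every gene listed there had a UMI in at least 29 of the 27064 cells (0.107%). In CON at 2 weeks, 94 of 42560 cells (0.221%) had a UMI of Sox10.

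The overlap of Sox10 and Mbp was read as the share of cells with Sox10 that also had Mbp. In CON rats 1 to 4, 52.6%, 22.2%, 25.0% and 26.2% of the cells with Sox10 also had Mbp, against 3.47 to 6.05% of the cells without Sox10. In LDP rats 1 to 4 these shares were 64.3%, 36.1%, 10.0% and 35.0%, against 1.76 to 6.36%. In LDP rat 6, 60.6% of 127 Sox10 cells had Mbp, against 19.9% of the cells without Sox10. The share was above that of the cells without Sox10 in all 9 of these libraries, of which CON rat 2 rested on 9 cells with Sox10 and LDP rat 3 on 10.

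The deposited class of these cells was not the same in the groups. In CON at 2 weeks, 26 of the 29 cells with Sox10 and Mbp had no class name, and 3 were in the IVD class. In LDP at 2 weeks, 38 of 43 were in the IVD class, and 37 of those were in its subcluster 3. In LDP at 8 weeks, 78 of 81 had no class name. The authors clustered each group apart, so the class names were set by 4 separate runs.

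**Figure D1:**
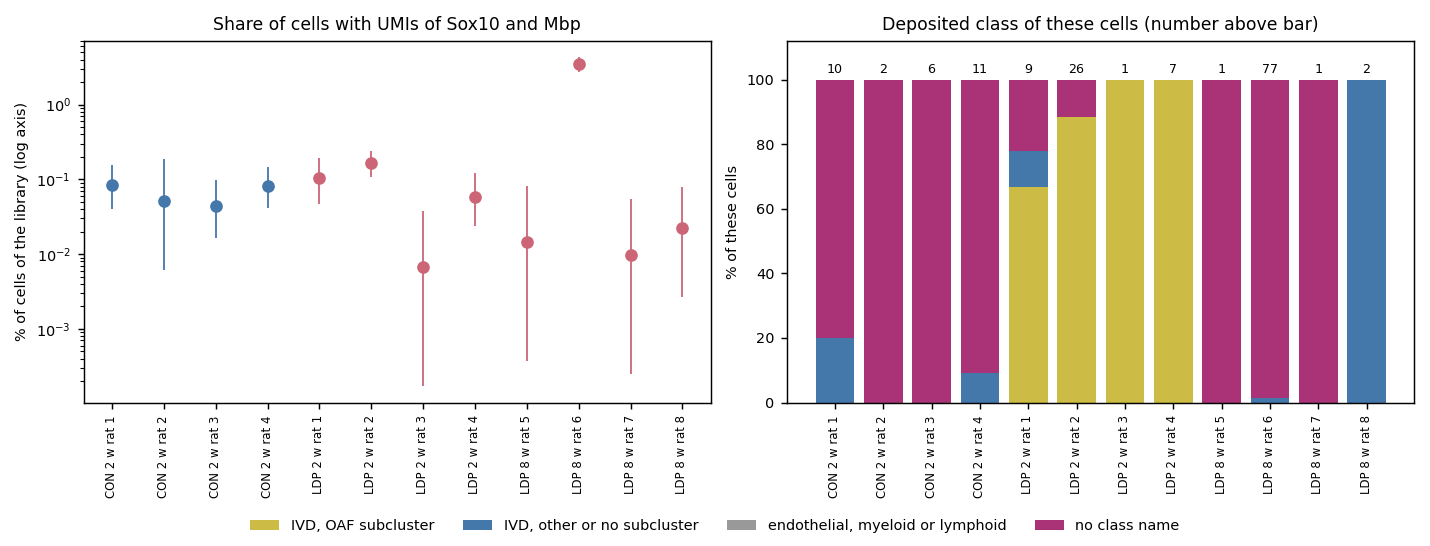
Cells with Sox10 and Mbp by library, for the 12 libraries that list Sox10. Left, percent of the library's cells on a log axis with 95% Clopper-Pearson intervals (blue CON, red LDP); right, the deposited class of these cells with their number above each bar. LDP rat 6 held 77 such cells, and the cells sat mainly in no class in CON and in the OAF subcluster in LDP at 2 weeks.

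Subcluster 3 of the IVD class is the OAF in both groups by its markers. Its mean Col1a1 level was above that of subclusters 1 and 2 in all 8 libraries of 2 weeks, and so was that of Lum. Subclusters 1 and 2, which the study names nucleus pulposus and inner annulus fibrosus, differed in depth in opposite order between CON and LDP, and their levels are given here only as the range of their group means. IVD subclusters were given only at 2 weeks.

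Other Schwann genes were compared between the cells with Sox10 and Mbp and the rest. This was read in the 7 libraries with at least 5 such cells, as the log2 difference of mean CPM (the counts of a cell scaled to a common total) plus 10 between these cells and all other cells of the same library. Among the 41 genes of 3 Schwann lists, 35 were listed in at least 1 of these libraries and 30 in all 7. The lists were chosen with earlier results of these data known, so their counts are a description. Of the 30 genes, 14 were higher in the Sox10 and Mbp cells in all 7 libraries, against 2.51% of the 13651 genes listed in all 7. Against cells of the same class alone, 11 were higher in all 7 (exact sign flips, smallest adjusted p = 0.0873). The share over all genes is not given for that comparison, and the 2.51% does not belong to it. Over the 13651 genes, set against all other cells, 0% passed an adjusted p of 0.05 as higher (exact sign flips over libraries, smallest adjusted p = 0.0520). The smallest p that 7 libraries can give is 0.0156, and 4105 genes were at it, 3763 of them lower in the Sox10 and Mbp cells in every library. A gene with no UMI in these few cells is lower there whenever the rest hold any. Gdnf, at 0 against 0.754 CPM, was at this p in that way. How many of the lower genes were of this kind was not counted. Such genes enter the background share of 2.51% as well. The smallest adjusted p is set by how many genes share the smallest p, so the 0% says nothing about the higher genes alone. At an unadjusted p under 0.05 there were 5369 genes in either direction.

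The myelin list had 6 such genes among 10 tested, the list of lineage and control genes 6 of 12, and the list of immature, non-myelinating and repair Schwann genes 2 of 8. The median differences of the tested genes were 2.89, 2.81 and 2.02, against -0.15 over all genes, those with no UMI in these cells included. Col28a1, a collagen of peripheral glia, was 4.74 ± 1.51 (SD, n = 7 libraries) higher on the log2 scale, the sodium channel gene Scn7a 4.68 ± 1.94, and Sox2, a factor of immature Schwann cells, 4.47 ± 1.61.

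Cdh19, a cadherin of the lineage, was 4.32 ± 1.40 higher on the same scale. The myelin genes Mal, Gldn and Cnp were 4.09 ± 1.36, 4.09 ± 1.56 and 4.08 ± 1.24 higher, and Sostdc1 was 4.06 ± 1.44 higher. Pllp was 3.26 ± 1.59 and the neurotrophin receptor gene Ngfr 3.23 ± 1.14 higher. Ugt8, an enzyme of myelin lipid synthesis, was 2.97 ± 1.16 higher, and Gpm6b 2.89 ± 0.64. All of these but Pllp, which was higher in 6, were higher in all 7 libraries. Egr2 and Jun were chosen after their values were seen. Egr2, the factor that drives myelination, differed by 1.76 ± 1.64 and was higher in 6. Jun, a factor of the repair Schwann cell that disc cells also carry, was 1.94 ± 0.86 higher in all 7.

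**Figure D2:**
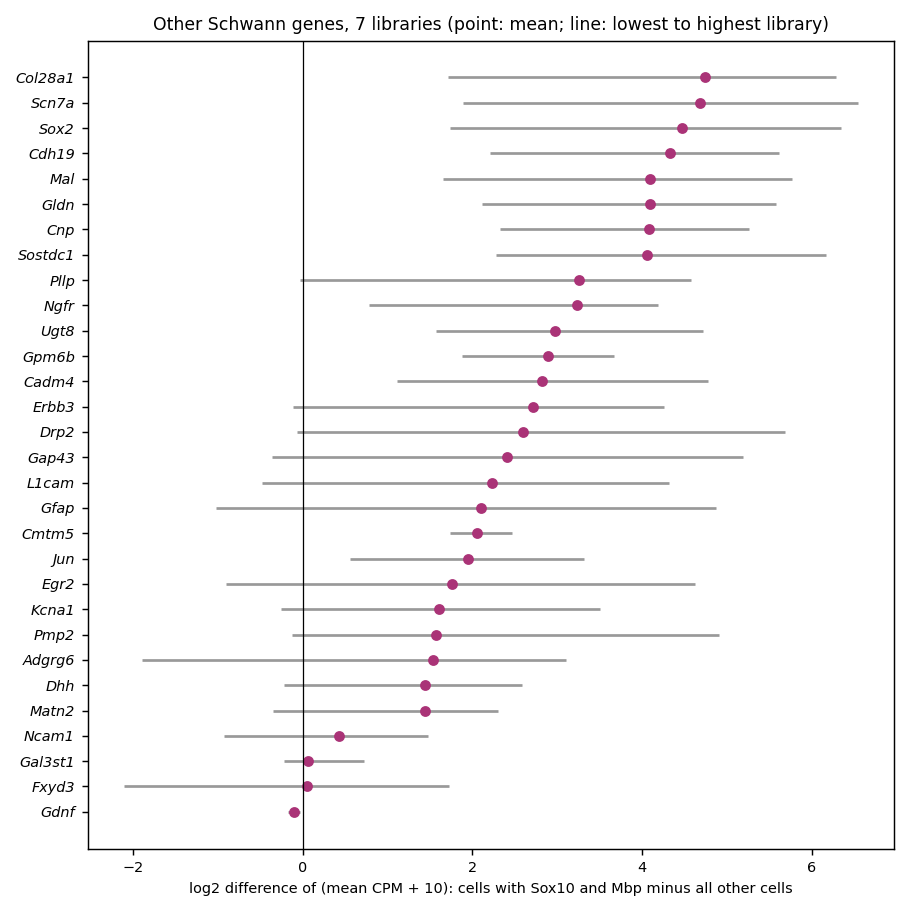
Log2 difference of mean CPM plus 10 between cells with Sox10 and Mbp and all other cells, for the 30 list genes listed in all 7 libraries. Points are means over libraries and lines run from the lowest to the highest library; Col28a1 lies at the top with 4.74, and Gdnf, with no UMI in these cells, at the bottom.

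Over all genes listed in all 4 groups rather than the lists, 4273 had a UMI in at least 10% of the Sox10 and Mbp cells on average. This filter reads the same cells in which the genes are then ranked, so the ranking is only a description. Of the 20 with the largest mean difference, 16 are given here. They were the list genes Col28a1, Scn7a, Sox2, Cdh19, Mal, Gldn and Cnp named above. Sostdc1 was outside this ranking because it was not listed in every group. The others were Egfl8, Cryab, Plekha4, Abca8a, Sncg, Fgl2, Prrg4, Itgb8 and Lgi4. Egfl8 stood at 805 CPM in these cells and 9.80 in the rest, and Cryab, a small heat shock protein also found in Schwann cells, at 4909 against 387. Lgi4, a secreted protein of the Schwann lineage, stood at 536 against 22.0.

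Markers of other cell types were read in the same cells. The summed level of Schwann markers other than Sox10 and Mbp, 4 or 5 of 5 listed, ran from 177 to 1348 CPM, against 7.23 to 16.3 in other IVD cells. Endothelial markers, 5 of 5 listed, summed to 0 to 45.1 CPM and were above other IVD cells in 2 of 7 libraries, in LDP rat 1 at 45.1 against 1.63 CPM. Myeloid markers, 4 of 4, summed to 0 to 49.3, and lymphoid markers, 4 of 4, to 0 to 3.32. Disc markers, 5 of 5, were below the other IVD cells in all 7 libraries, at 356 to 6718 against 9289 to 28739 CPM. Oligodendrocyte markers, 2 or 3 of 5 listed, were at 0 in 6 of 7 libraries and at 37.8 CPM in LDP rat 6, against 1.78 in its other IVD cells. The 37.8 CPM was Mag alone, a gene that is also in the myelin list of Schwann genes. The other listed oligodendrocyte markers were at 0 in all 7 libraries. Fibroblast markers, 4 of 4, stood at 744 to 5701 CPM, below other IVD cells in all 7 libraries, and above the summed Schwann markers in 6 of 7, all but LDP rat 6 (961 against 1348). In all but CON rat 4, 2 of the 4 fibroblast markers were at 0 in these cells. The Schwann sum leaves out Sox10 and Mbp, at means of 415 and 1595 CPM in these cells. The 2 sums hold different genes, so their sizes do not rank the cell types. The 1 listed gene of the 3 satellite glia markers was at 29.5 to 262 CPM, above other IVD cells in 5 of 7 libraries. Melanocyte markers, at 0 to 70.3 CPM, and neuron markers, at 0 to 26.6, were above other IVD cells in 3 of 7. Erythroid markers reached 2495 CPM in LDP rat 4 and 753 in CON rat 1, and their part in the results was not tested.

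Sox10 itself was low in whole libraries outside LDP rat 6. Its mean level in CON rats 1 to 4 was 1.05, 1.09, 0.932 and 1.46 CPM, and in LDP rats 1 to 4 it was 0.690, 2.20, 0.256 and 0.482 CPM. LDP rat 2 lay above all CON libraries and the other 3 below them. In LDP rats 5 to 8 it was 0.0529, 27.5, 0.0402 and 0.0513 CPM. The 3 libraries other than rat 6 rested on 1, 2 and 2 cells.

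The class that held Sox10 was not the same in the groups. Cells without a class name held 78.6 to 100% of its summed level in CON rats 1 to 4 and 99.4% in LDP rat 6, while IVD cells held 92.6 to 100% in LDP rats 1 to 4. In cells without a class name its mean level over 12 libraries was 20.9 CPM ± 29.6 (SD), or 14.0 ± 18.4 without LDP rat 6, and 0 to 19.7% of the cells had a UMI. In myeloid cells it was listed at 0 in all 12 libraries. In the IVD class it was 0 to 2.28 CPM. The IVD level was 0.0637, 0, 0.219 and 0.145 CPM in CON rats 1 to 4 and 0.684, 2.28, 0.344 and 0.642 CPM in LDP rats 1 to 4. All 4 LDP libraries lay above all 4 CON libraries, with a log2 difference of 2.23 ± 0.63 (SE, limma, adjusted p = 0.487), which did not pass over all genes (0% of 13819 genes passed). With 1 CPM added the difference was 0.76, and without rat 2, whose CON library was at 0, it was 1.44 (limma, adjusted p = 0.511 and 0.663). In LDP the OAF subcluster stood at 7.69 CPM ± 5.10 (SD, n = 4), against group means of 0.0424 and 0.0761 CPM in subclusters 1 and 2. In CON it had the lowest mean of the 3, within their spread, at 0.0297 ± 0.0594 and resting on 1 cell of rat 4, against 0.0673 and 0.159 CPM. The class placement described above also differed between the groups.

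Mbp had 3 places of expression. In whole libraries it was 18.1, 14.6, 9.53 and 17.0 CPM in CON rats 1 to 4 and 17.6, 15.6, 9.81 and 5.16 in LDP rats 1 to 4. At 8 weeks it was 15.0, 9.58, 11.7 and 14.7 in CON rats 5 to 8 and 7.11, 366, 11.4 and 15.9 in LDP rats 5 to 8. The groups overlapped at both times.

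Myeloid cells carried Mbp in all 16 libraries, at 73.5 CPM ± 32.2 (SD), with a UMI in 6.38 to 46.8% of the cells, and they were the highest class in 9 of the 16. Cells without a class name were the highest in the other 7, and reached 1235 CPM in LDP rat 6 and at most 214 CPM elsewhere. IVD cells stood at 12.4 CPM ± 5.00 (SD, n = 16), or 11.5 ± 3.71 without LDP rat 6. Over all 16 libraries they had a UMI in 5.74% of cells at a mean of the median depths of 6478 UMIs. They held the largest part of the summed Mbp level in every library but LDP rat 6, at 47.6 to 97.7%. Endothelial cells had Mbp in 0.786% of cells at 2718 UMIs (n = 12). At 1000 UMIs per cell the shares were 6.92% in myeloid, 1.06% in IVD and 0.169% in endothelial cells, in the same order as without thinning.

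In subclusters 1 and 2 the group means of Mbp were 7.73 to 11.6 CPM. In the OAF subcluster Mbp was 1.14 CPM ± 1.32 in CON and 47.4 ± 37.9 in LDP (SD, n = 4 each). The LDP values of rats 1 to 4 were 98.7, 53.3, 16.7 and 21.0 CPM, all above CON, and without rat 1 the mean was 30.4. Without rat 4 the CON mean was 0.508. In LDP 37 of the cells with Sox10 and Mbp lay there, and in CON none did. Cells with a Sox10 UMI held 6.30 to 35.2% of the summed Mbp level of the subcluster in LDP, which leaves out cells of the lineage in which Sox10 was not captured. Over the whole IVD class the log2 difference at 2 weeks was 0.15 ± 0.38 (SE, limma, adjusted p = 0.891).

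Prx was low in whole libraries outside LDP rat 6, and per cell it was mostly highest in endothelial cells or in cells without a class name. Its whole-library level in CON rats 1 to 4 was 3.43, 4.28, 3.03 and 3.76 CPM, and in LDP rats 1 to 4 it was 2.80, 3.02, 2.10 and 1.51 CPM. All LDP libraries lay below all CON libraries, since the lowest CON value, 3.026, was just above the highest LDP value, 3.022. At 8 weeks it was 2.46, 2.34, 2.39 and 2.34 in CON rats 5 to 8 and 0.904, 60.8, 1.01 and 1.30 in LDP rats 5 to 8, so only rat 6 lay above its controls.

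In endothelial cells Prx was 9.81 CPM ± 4.85 (SD, n = 12), and in IVD cells 1.74 ± 0.55 (n = 16). In cells without a class name it was 26.3 ± 51.5 (n = 16), or 14.1 ± 17.8 without LDP rat 6. Endothelial cells were the highest class in 6 libraries, cells without a class name in 9 and myeloid cells in 1. The 9 include all CON libraries of 8 weeks, in which no cell was named endothelial. IVD cells held the largest part of the summed Prx level in every library but LDP rat 6, at 37.3 to 90.4%. Within IVD cells at 2 weeks, the OAF stood at 4.56 CPM ± 0.957 in CON and 10.1 ± 8.45 in LDP. The LDP values of rats 1 to 4 were 22.3, 9.47, 4.89 and 3.89 CPM, so rats 3 and 4 lay within the CON range, and without rat 1 the LDP mean was 6.08 ± 2.98. As for Mbp, cells with Sox10 and Mbp were placed in this subcluster in LDP and not in CON. Cells with a Sox10 UMI held 1.82, 14.5, 0 and 0% of its summed Prx level in LDP rats 1 to 4. Cells in which Sox10 was not captured are left out of these shares, and their part in the Prx difference was not tested.

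Ncmap was listed only in LDP at 8 weeks, at 0.0205, 3.60, 0.0355 and 0.0757 CPM in rats 5 to 8. Of its 34 cells with a UMI, 24 were in rat 6. There 22 of the 628 cells without a class name had a UMI, against 1 of 1313 IVD cells. The fewest cells with a UMI of any gene listed in this group was 30, so Ncmap was listed only through rat 6.

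Pmp22 and S100b were genes of the disc as well. Pmp22 stood at 868 CPM ± 144 (SD, n = 16) in IVD cells, with a UMI in 84.7 to 97.4% of them, and IVD was its highest class in 13 of 16 libraries. S100b stood at 607 CPM ± 118 in IVD cells, with a UMI in 73.7 to 91.0%, and IVD was its highest class in 15 of 16. Endothelial cells had 180 CPM ± 43.3 of Pmp22 and 47.3 ± 18.9 of S100b (n = 12). In the OAF, S100b was 245 CPM ± 35.9 in CON and 273 ± 44.5 in LDP, and Pmp22 was 504 ± 31.2 and 586 ± 117 (SD, n = 4 each). In subclusters 1 and 2 the group means were 573 to 784 CPM for S100b and 831 to 952 CPM for Pmp22, above the OAF in each group.

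In the cells with Sox10 and Mbp both genes were read again, and the difference between Pmp22 and S100b was not tested. Pmp22 in these cells ran from 390 to 6962 CPM and was above the other IVD cells of the same library in 6 of 7 libraries, with a mean of 3769 against 822 CPM. S100b ran from 134 to 1591 CPM and was above the other IVD cells in 3 of 7. Against all other cells the log2 difference was 1.75 ± 1.54 (SD, exact sign flips, p = 0.0469, adjusted over all genes p = 0.119) for Pmp22, higher in 6 of 7 libraries, and -0.01 ± 1.29 (exact sign flips, p = 1) for S100b, higher in 5 of 7. Prx differed by 2.12 ± 1.97 and was at 0 in 2 of the 7 libraries (exact sign flips, p = 0.0625).

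**Figure D3:**
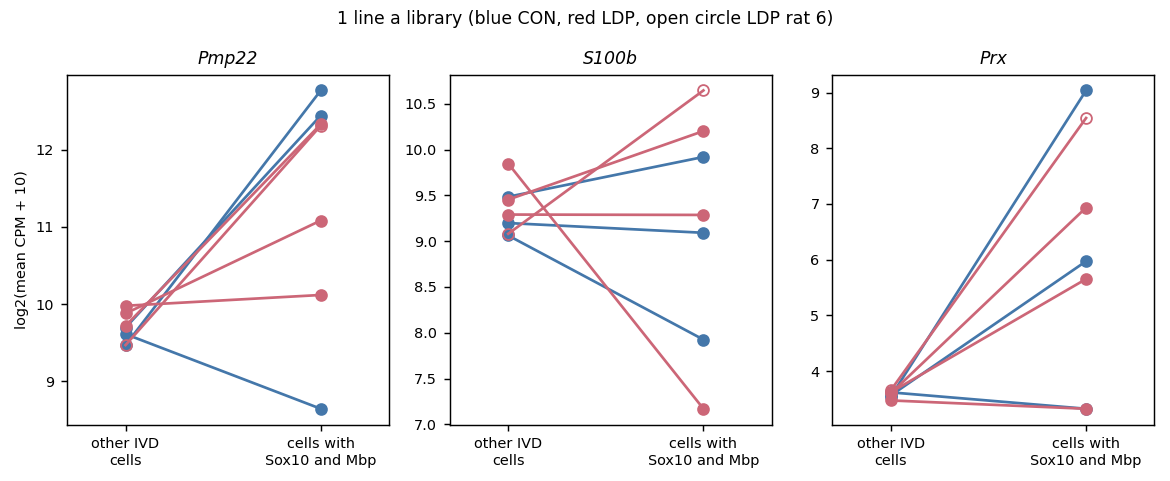
Pmp22, S100b and Prx as log2(mean CPM + 10) in the other IVD cells and in the cells with Sox10 and Mbp, 1 line per library (blue CON, red LDP, open circle LDP rat 6). Pmp22 was higher in the cells with Sox10 and Mbp along 6 of 7 lines and S100b along 3 of 7.

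**Figure D4:**
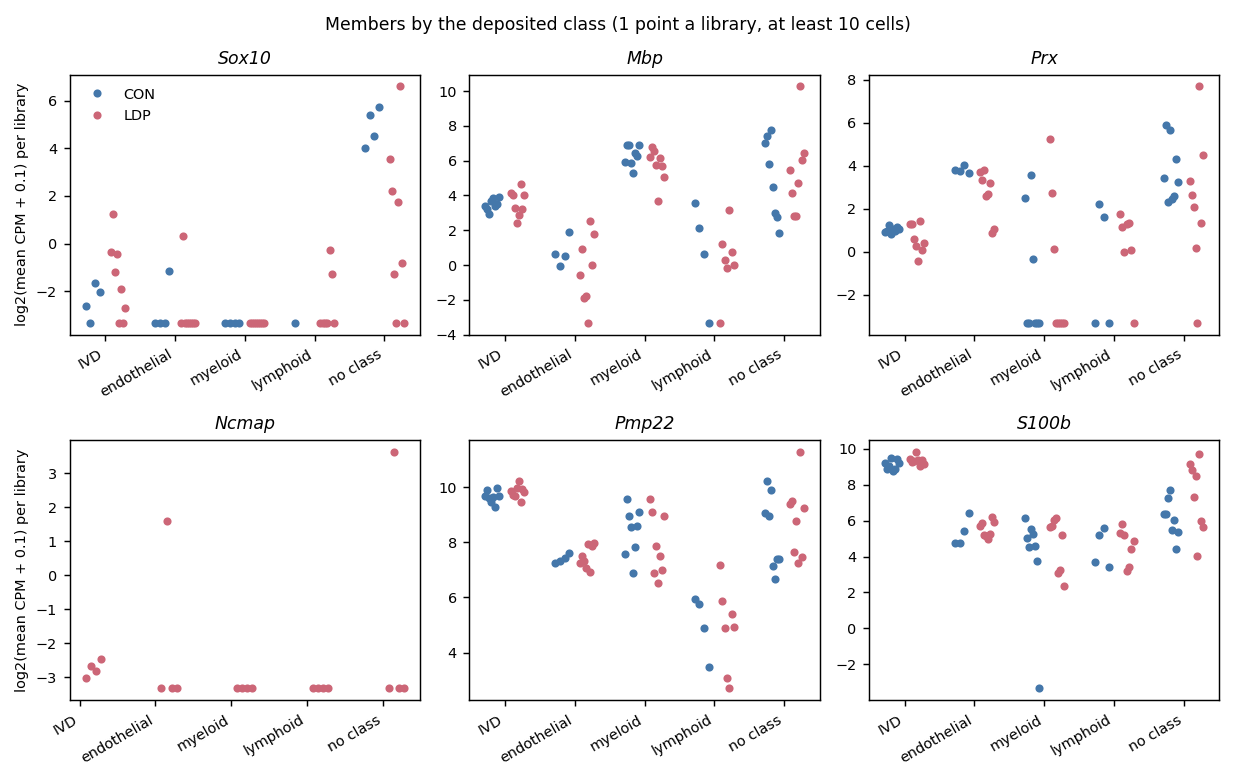
Each gene as log2(mean CPM + 0.1) in each deposited class, 1 point per library with at least 10 cells of the class (blue CON, red LDP). Pmp22 and S100b lie highest in IVD cells in most libraries, Mbp in myeloid cells and cells without a class name, and Sox10 in cells without a class name.

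The question of the design was how the punctured discs differed from the control discs of the same rats. Sox10 could be tested at 2 weeks only and Ncmap not at all. None of the members tested passed in whole libraries at either time (limma with the rat as block, on log2 of mean CPM plus 0.1). Beside this, 0% of 13596 genes passed at 2 weeks and 0.00736% at 8 weeks; at an unadjusted p under 0.05 there were 1088 genes at 2 weeks and 1273 at 8 weeks. On UMIs at 2 weeks DESeq2 called 137 genes and edgeR 0, and at 8 weeks 210 and 2, and neither called a member.

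At 2 weeks the log2 difference of LDP from CON was -0.40 ± 0.84 (SE, adjusted p = 0.901) for Mbp and -0.63 ± 0.84 (adjusted p = 0.841) for Prx. These errors share the spread of the 8-week libraries, LDP rat 6 included. In a fit of the 2-week libraries alone they were 0.34 for Mbp (limma, adjusted p = 0.794) and 0.25 for Prx (limma, adjusted p = 0.667). In the fit of all libraries it was 0.03 ± 0.22 (adjusted p = 0.977) for Pmp22 and 0.26 ± 0.17 (adjusted p = 0.703) for S100b. For Sox10, fitted over the 8 libraries of 2 weeks, it was -0.64 ± 0.46 (adjusted p = 0.767), and it turned to 2.04 without the cells that had no class name, which did not pass either. Without those cells the difference for Prx was -0.31 (limma, adjusted p = 0.717).

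At 8 weeks the log2 difference was 1.06 ± 0.84 (adjusted p = 0.700) for Mbp and 0.33 ± 0.84 (adjusted p = 0.907) for Prx. Without rat 6 these were -0.33 (adjusted p = 0.801) and -1.11 (adjusted p = 0.288). For Pmp22 it was 0.49 ± 0.22 (adjusted p = 0.533) and for S100b 0.29 ± 0.17 (adjusted p = 0.616). The Pmp22 levels were 659, 458, 988 and 785 CPM in CON rats 5 to 8 and 1069, 1130, 868 and 875 in LDP, and the groups overlapped. Without rat 6 the log2 difference was 0.22 for Pmp22 (limma, adjusted p = 0.746) and 0.17 for S100b (limma, adjusted p = 0.804). Leaving out each rat of 8 weeks in turn, that of S100b ran from 0.15 to 0.45. The S100b levels were 356, 347, 660 and 554 CPM in CON rats 5 to 8 and 586, 551, 575 and 546 in LDP, where the spread was smaller.

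**Figure D5:**
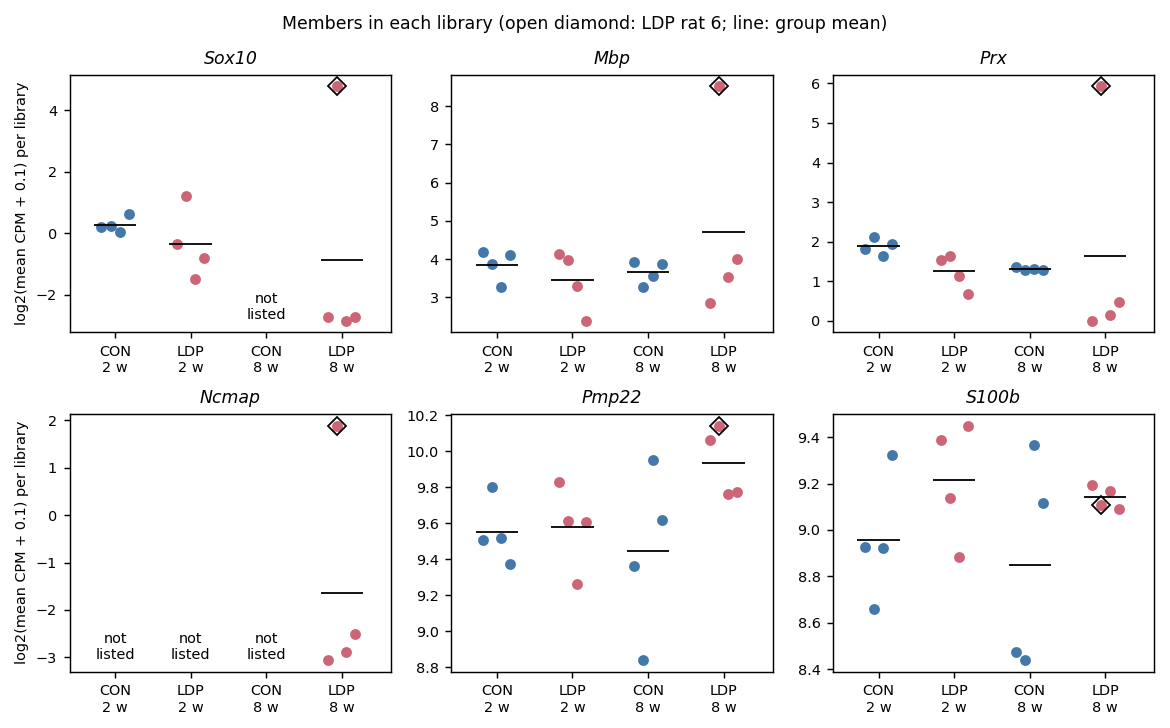
Each gene as log2(mean CPM + 0.1) in each of the 16 libraries, by group (blue CON, red LDP, line the mean, open diamond LDP rat 6). LDP rat 6 lies far above the rest of its group for Sox10, Mbp, Prx and Ncmap, and near it for Pmp22 and S100b.

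Within IVD cells no member tested passed either, where 0.118% of genes passed at 2 weeks and 0.517% at 8 weeks. The log2 difference for S100b was 0.33 ± 0.12 (SE, limma, adjusted p = 0.404) at 2 weeks and 0.17 ± 0.12 (adjusted p = 0.425) at 8 weeks. Leaving out each rat of 8 weeks in turn, the 8-week difference for S100b ran from 0.029 to 0.25. For Prx the differences were -0.13 ± 0.32 (adjusted p = 0.881) at 2 weeks and -0.67 ± 0.32 (adjusted p = 0.262) at 8 weeks. The 8-week effect and the 2-week effect were not told apart for Mbp, Prx, Pmp22 or S100b (limma, adjusted p of the difference at least 0.999, where 0.0148% of genes passed in IVD cells and 0% in whole libraries).

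Between the control discs of 8 and of 2 weeks, Prx was lower at 8 weeks in all 4 libraries, by -0.58 ± 0.17 on the log2 scale (SE, limma, adjusted p = 0.0541). That missed the threshold, which 11.7% of genes passed, and with 1 CPM added it passed narrowly (adjusted p = 0.0495). Mbp, Pmp22 and S100b differed by -0.20 ± 0.23, -0.11 ± 0.22 and -0.11 ± 0.23. The time points came from different rats. No cell of CON at 8 weeks was named endothelial, and in CON at 2 weeks, with 336 to 1128 such cells per library, they held 26.5 to 33.7% of the summed Prx level. In IVD cells of the controls Prx was 1.89 CPM ± 0.266 at 2 weeks and 1.96 ± 0.104 at 8 weeks (SD, n = 4 each). In their cells without a class name it was 31.4 ± 27.7 at 2 weeks and 10.2 ± 6.82 at 8 weeks. What lay behind the lower Prx level was not tested.

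Over the 12 libraries that listed Sox10, the genes whose log2 levels followed it most closely were Zfp536, Abca8a, Kcna2, Ncam1, Rab38, Slitrk2, Sox2, Grik2, Zfp711 and Lgi4, with Pearson r from 0.970 to 0.982. Without LDP rat 6, r for these 10 ran from 0.928 to 0.957 over 11 libraries, and over the 8 libraries of 2 weeks from 0.706 to 0.909. Prx had r = 0.947 and Mbp 0.797, or 0.911 and 0.387 without LDP rat 6, and 0.689 and 0.589 over the 8 libraries of 2 weeks. Pmp22 had r = 0.173 and S100b -0.07, or -0.447 and -0.116 without LDP rat 6. These are descriptions over libraries that share rats and differ in depth.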

How the data were processed

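Discs of 8 rats gave 16 libraries of 3′ single-cell RNA, each assigned to CON or LDP at 2 or 8 weeks by its labels. The submitters' processing notes name Partek and the rn6 genome; the aligner and the handling of doublets and free RNA are not given in the sources used here, and no doublet caller was run. For every cell the authors deposited log2 values of CPM + 1 per gene, and a cell total in expected counts. Multiplying CPM by that total returned whole UMIs, within 0.02, for 99.4% of values above 0, and recovered sums were rounded for the count models. Kept cells had 496 to 3000 genes, 643 to 24072 UMIs and at most 10.1% mitochondrial reads, and libraries had 17759809 to 85025591 UMIs in all. Class names and cluster numbers are the authors' own. Some genes, and the results and alternatives that need them, are not reported here, and the lists are counted without them.

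The members and lists were chosen with earlier results of these data known. The library was the unit. Mean CPM plus 0.1 was taken to log2 and fitted by limma 3.58.1 with the rat as block, for genes with a mean of at least 0.1 CPM, with Benjamini-Hochberg adjustment over all genes; edgeR 4.0.16 and DESeq2 1.42.0 on UMIs were alternatives. Shares were compared by exact permutation, and cells with Sox10 and Mbp were set against the rest by exact sign flips, with p adjusted over all genes in place of the planned adjustment over the lists. For thinning, the expected share at 1000 UMIs was computed exactly. The fit was also run on data simulated from its own means and spread, and the outcome is not given here. Named genes were the members, the 12 largest differences of the reported list genes, 16 of the 20 largest over all genes listed in all 4 groups, and the 10 most like Sox10. Egr2 and Jun were added after their values were seen. CON and LDP of a number are the same rat; their deviations from group means correlated at -0.61 to 0.57. R 4.3.3, Python 3.11.15, numpy 2.4.6, scipy 1.17.1 and pandas 2.3.3 were used.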

Additional observations from a re-analysis of the deposited data

Results flagged for a closer look

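Of the 23 groups of 4 values examined over all groups of libraries, 5 passed Dixon's 95% limit. All 5 were of LDP at 8 weeks, where rat 6 lay far from the other 3 libraries. Most of the 23 did not hold this library. Chance passes about 1 in 20 independent groups, but these 5 were read in the same libraries and are not independent. The limit is set on the gap to the nearest neighbour over the whole range. This ratio was 0.9995 for the Sox10 level, 0.976 for Mbp, 0.993 for Prx and 0.985 for Ncmap. It was 0.997 for the share of cells with Sox10 and Mbp. The fewest cells with a UMI of any gene listed in LDP at 8 weeks was 30. Sox10 had a UMI in 132 cells there, 127 of them in rat 6, and Ncmap in 34, 24 of them in rat 6. Both genes were thus listed, and their levels and the share examined, only through this library, so these ratios are no separate support. In this library 235 of the 628 cells without a class name had at least 3 of 7 listed Schwann markers, against 3 of 1313 IVD cells. Sox10, Mbp, Prx and Ncmap, whose levels had flagged this library, were among the 7, so the count is no separate support. No cause was tested.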

How the results depend on the processing

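None of the members tested passed in any limma, edgeR or DESeq2 alternative of LDP against CON, with or without the replicate block by rat. The block left the log2 differences as they were (Mbp -0.40 at 2 weeks and 1.06 at 8 weeks). With 1 CPM added, 1 member passed between the controls, Prx at -0.45. The share of cells with Sox10 and Mbp gave p = 0.875 by exact sign flips over paired rats (the replicate block), and LDP minus CON turned to -0.00436 percentage points at 1000 UMIs per cell and to -0.00896 for Sox10 alone. Counting cells with Sox10 or Mbp and another Schwann gene was not run. At 1000 UMIs the share of cells with a UMI was 6.92% for Mbp in myeloid, 0.939% for Prx in endothelial, 51.1% for Pmp22 and 41.2% for S100b in IVD cells. Without cells that had no class name, whole-library log2 differences turned to 0.086 for Mbp and 2.04 for Sox10 at 2 weeks, -0.024 for Mbp and -0.60 for Prx at 8 weeks, and -0.11, -0.29 and -0.076 for Mbp, Prx and S100b between the times. Prx at 8 weeks was -0.10 by edgeR and -0.13 by DESeq2, and S100b between the times -0.092 and -0.076. The cause of these turns was not tested.

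Leaving out 1 rat at a time, whole-library log2 differences ran from -0.57 to 0.033 for Mbp and -0.070 to 0.12 for Pmp22 at 2 weeks, from -0.33 to 1.77 for Mbp and -1.11 to 0.89 for Prx at 8 weeks, and from -0.47 to 1.53 for Prx and -0.11 to 0.20 for S100b between the times. The negative ends at 8 weeks were without rat 6, and those of Mbp in IVD cells at 8 weeks too. In IVD cells they ran from -0.065 to 0.62 for Mbp and -0.29 to 0.039 for Prx at 2 weeks, from -0.38 to 0.37 for Mbp at 8 weeks, and from -0.58 to 0.23 for Mbp and -0.057 to 0.19 for Pmp22 between the times. Between the controls they ran from -0.28 to 0.094 for Pmp22 and -0.28 to 0.028 for S100b. Shares ran from -0.0143 to 0.0356 percentage points for Sox10 and Mbp. With at least 10 cells, 4 libraries remained and p could not go below 0.125. All other values, 96 of counts and shares and 333 of single genes, kept direction and call. Some of the 333 could not turn, since leaving out a rat of 1 time point does not change the difference at the other. Cells with a Sox10 UMI were few, 1 to 127 per library, which limits every share.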

Other observations

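Some genes were lower in the cells with Sox10 and Mbp than in the rest, as a description with no test, and those named here were chosen after their values were seen. Among genes with a UMI in at least 10% of them, Serpina1 had the largest negative difference, -3.66 ± 1.79 (SD, n = 7 libraries) on the log2 scale of mean CPM plus 10. Mgp, an inhibitor of calcification in cartilage, differed by -3.63 ± 2.55. Acan, the core protein of aggrecan, stood at 489 CPM in these cells and 2668 in the rest, a difference of -3.45 ± 2.11.

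In LDP at 2 weeks, 17 of the 43 cells with Sox10 and Mbp lay in the deposited cluster 4 and 12 in cluster 5, which also held 3219 endothelial cells. In LDP at 8 weeks, 77 of 81 lay in the deposited cluster 3, together with 609 endothelial cells.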
